A study of Rattus norvegicus with 4 samples.

Results

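The genes described here encode ion channels, ion pumps and calcium handling proteins, measured in aged rat tendon stem/progenitor cells (rTSPCs) treated with prim-O-glucosylcimifugin (POG) or with its vehicle. They were taken by gene symbol: potassium channels (Kcn), voltage-gated calcium channels (Cacn), sodium channels (Scn), chloride channels (Clcn, Clic, Ano), transient receptor potential channels (Trp), Piezo, store-operated entry proteins (Orai, Stim), store release channels (Itpr, Ryr), the sodium pump (Atp1), calcium pumps (Atp2), the Camk prefix and S100A proteins. This choice gave 78 genes, each with 1 feature, among 7235 named genes of the 10141 features in the table. Ano, Ryr, Piezo2 and Trpv4 were not analysed here.

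There were 2 groups of 2 arrays, and the titles give all cells as rTSPCs of 18-month-old rats. The 18M + POG cells received 20 μmol/L POG, a chromone glycoside of saposhnikovia root, and the 18M + DMSO cells received an equal amount of dimethyl sulfoxide, the solvent. Labelled cDNA made from total RNA was hybridised to Affymetrix Rat Transcriptome Array 1.0 chips. The values are log2 signals after robust multichip analysis (RMA). The treatment entries give treatment until passage 12. The paper describes passaging to passage 12 for cells of young rats, and a shorter treatment for aged rTSPCs. The passage and the length of treatment are therefore not settled here. The titles of the 18M + DMSO arrays name both treatments, so the groups follow the treatment entries. The labels call the arrays biological replicates without saying whether the cells came from separate rats. The p-values therefore set the group difference against the spread between these arrays, a spread shared in large part over all genes. They may not cover the variation between rats. In this RNA from whole cultures, fewer cells of a type and less RNA per cell cannot be told apart.

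Ion channels let ions flow down their gradients, and pumps spend ATP to rebuild those gradients. Potassium channels set the resting voltage of a cell, which in turn sets the drive on calcium. Calcium enters through channels of the surface membrane or leaves the endoplasmic reticulum through inositol trisphosphate receptors, is removed by Atp2 pumps, and acts through calmodulin and its kinases. S100A proteins are small proteins with EF-hand folds, most of which bind calcium. In tendon, calcium signals are known for their part in the response of the cells to mechanical load.

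The signal of many of these genes was low. A gene was called dim where its mean in both groups lay under 6.34, the 25th percentile of all features, and 38 of the 78 genes were dim. As a yardstick chosen after the values were seen, the 14 features of odorant, vomeronasal and trace amine receptors, receptors of sensory epithelia, had means over the 4 arrays of 3.46 to 5.61 (median 4.49), a highest single value of 6.20, and 2 of the 14 passed the test below, both as higher in 18M + POG. Of the 78 genes, 31 had both group means at or under 5.61. In another 7, 1 group mean was at or under 5.61 and the other lay above it. All 7 passed the test below, but that choice itself favours genes with a group difference. The share of such genes that passed over all named genes is not given here. The low mean was that of 18M + POG for Kcnn4, Cacna1i and S100a5, and that of 18M + DMSO for Kcnj2, Kcne4, Atp2b4 and Scn2b. For these 7 genes the signal of that group was not told from background, so the size of the fold change rests on a floor. The classes differed in this respect. All 3 sodium channel genes were dim, as were 14 of 19 potassium channel pores, 4 of 6 potassium channel auxiliary subunits and 6 of 11 voltage-gated calcium channel genes, but none of the 3 inositol trisphosphate receptors, none of the 2 store-operated entry genes and 1 of 7 chloride channel genes. Signals of different features depend on their probes, so a brighter gene need not be the more abundant RNA.

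Of the 78 genes, 16 were higher and 11 were lower in 18M + POG than in 18M + DMSO cells, and 51 did not pass an adjusted p of 0.05 (limma, Benjamini-Hochberg adjustment over 7235 genes). That is 34.6% of the 78 genes. Over all named genes 37.6% passed, 20.4% as higher and 17.2% as lower, so the share among ion channels and calcium handling genes lay near that of the table as a whole. At an unadjusted p under 0.05 there were 35 of the 78 genes (44.9%), against 47.3% of all named genes. By the test that the methods name, with p under 0.05 and a fold change over 1.5 and no adjustment, 16 of the 78 genes passed, against 21.7% of all named genes. The median log2 fold change was 0.11 over the 78 genes, compared with 0.04 over all named genes. Among the 40 genes that were not dim, 20 passed (50% against 42.2% of all named genes that were not dim), and among the 38 dim genes 7 passed (18.4% against 19.2%). Both 18M + POG arrays lay above both 18M + DMSO arrays for 36 genes and below them for 23, and the arrays overlapped for 19. Over all named genes the arrays lay apart for 69.8% (37.2% above and 32.7% below).

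**Figure D1:**
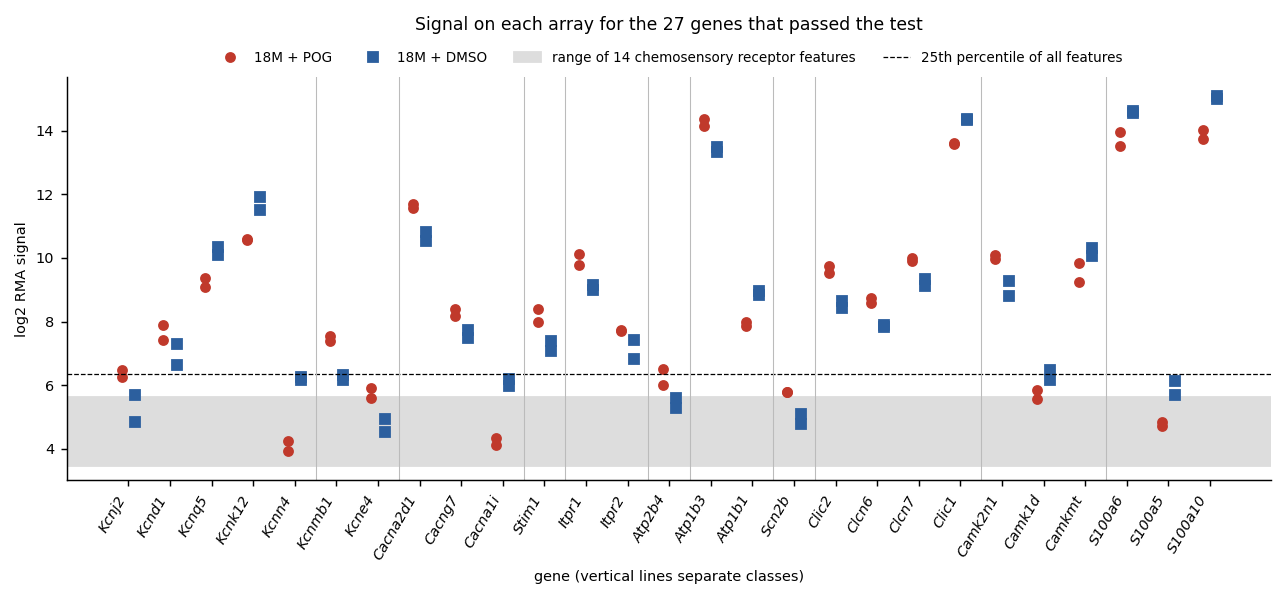
Log2 RMA signal (vertical axis) on each of the 4 arrays for the 27 genes that passed, ordered by class along the horizontal axis with thin vertical lines between classes; circles are 18M + POG arrays and squares 18M + DMSO arrays, the dashed line is the 25th percentile of all features (6.34), and the grey band spans the means of 14 chemosensory receptor features (3.46 to 5.61). In all 27 genes the circles and squares of a gene do not overlap, the 18M + POG signals of Kcnn4, Cacna1i and S100a5 lie inside the grey band, and so do 18M + DMSO signals of Kcne4, Atp2b4 and Scn2b.

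Potassium channel pores were measured for 19 genes, of which 2 rose and 3 fell with POG. The decrease with the largest measured size was that of Kcnn4, the intermediate-conductance potassium channel that calcium and calmodulin open. Kcnn4 had log2 signals of 3.94 and 4.25 on the 18M + POG arrays, against 6.26 and 6.16 on the 18M + DMSO arrays. The 18M + POG signals lay within the range of the chemosensory receptor means, and the 18M + DMSO signals lay above that range but close to the highest single receptor value of 6.20, a log2 fold change of -2.12 ± 0.20 (SE; adjusted p = 1.5e-06, limma). Kcnk12, a tandem-pore background channel subunit, gave 10.58 and 10.60 in 18M + POG cells, against 11.52 and 11.93 in 18M + DMSO cells. Its signal was far above the dim range in both groups, and it fell by 1.14 on the log2 scale, a 2.20-fold change (adjusted p = 0.00065). Kcnq5, which carries slow M-type currents, gave 9.09 and 9.38 in 18M + POG cells, against 10.34 and 10.09 in 18M + DMSO cells (log2 fold change -0.98 ± 0.20, adjusted p = 0.00189).

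The pores that rose were Kcnj2 and Kcnd1. Kcnj2, the inward rectifier that holds the resting potential of many cells near the potassium equilibrium, reached 6.26 and 6.49 in 18M + POG cells, against 4.85 and 5.68 in 18M + DMSO cells. Its groups did not overlap, although its 18M + DMSO arrays were the widest such pair among the 78 genes, with an SD of 0.59 (log2 fold change 1.11 ± 0.25, adjusted p = 0.00331), and its 18M + DMSO mean was within the range of the chemosensory receptors. Kcnd1, a transient A-type channel, gave 7.43 and 7.90 in 18M + POG cells, against 6.62 and 7.28 in 18M + DMSO cells (log2 fold change 0.72 ± 0.24, adjusted p = 0.0330). The other 14 pores did not pass. Of these Kcnk2, a tandem-pore channel that membrane stretch opens, was the only one that was not dim, at 9.77 and 9.68 in 18M + POG cells, against 9.39 and 9.14 in 18M + DMSO cells (log2 fold change 0.46, adjusted p = 0.0802). When each array was left out in turn, Kcnn4 and Kcnk12 passed every time. Kcnq5 did not pass without 18M + DMSO array 1 (adjusted p = 0.0698) or 18M + POG array 1 (0.0630). Kcnj2 did not pass without 18M + DMSO array 1 (0.103), 18M + POG array 1 (0.0942) or 18M + POG array 2 (0.147), and Kcnd1 did not pass without any 1 of the 4 (0.0544 to 0.379).

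Auxiliary subunits of potassium channels were measured for 6 genes; 2 rose and none fell. Kcnmb1 encodes a beta subunit that raises the calcium sensitivity of the large-conductance potassium channel and is best known from smooth muscle. It had the largest increase of the 78 genes, with 7.53 and 7.40 in 18M + POG cells, against 6.17 and 6.32 in 18M + DMSO cells (log2 fold change 1.22 ± 0.19, adjusted p = 0.000223), and passed with any 1 array left out. The pore of the same channel, Kcnma1, was dim, with 4.95 and 4.81 in 18M + POG cells, against 4.41 and 4.55 in 18M + DMSO cells, and did not pass (log2 fold change 0.40, adjusted p = 0.120). Kcnip1, the gene beside Kcnmb1 in the RefSeq gene order of chromosome 10, was dim and did not pass (log2 fold change 0.20, adjusted p = 0.446). Of the smooth muscle and pericyte markers, 11 were measured, 3 as higher, 3 as lower and 5 short of the threshold, and the log2 of their summed signal was 18.6 to 18.8 on the 18M + POG arrays and 18.7 to 18.8 on the 18M + DMSO arrays. Myh11, a smooth muscle myosin, rose by 3.14 on the log2 scale while Acta2 differed by 0.07 and did not pass (adjusted p = 0.823); the part of these cells in the rise of Kcnmb1 was not tested.

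Kcne4, a single-pass subunit that dampens the current of several voltage-gated potassium channels, gave 5.60 and 5.91 in 18M + POG cells, against 4.53 and 4.94 in 18M + DMSO cells. It was dim in both groups, its 18M + DMSO signals were within the chemosensory receptor range, and its groups did not overlap (log2 fold change 1.02 ± 0.21, adjusted p = 0.00198). The call was lost without 18M + DMSO array 1 (adjusted p = 0.0803) or 18M + POG array 2 (0.0835). Kcnip3, the remaining subunit that was not dim, differed by 0.23 on the log2 scale and did not pass (adjusted p = 0.385).

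Voltage-gated calcium channel genes numbered 11, of which 2 rose and 1 fell. Cacna1i, a pore of the T-type channels that open near the resting potential, gave 4.11 and 4.33 in 18M + POG cells, against 6.18 and 5.98 in 18M + DMSO cells. As with Kcnn4, the 18M + POG signals were within the range of the chemosensory receptor features (log2 fold change -1.86 ± 0.20, adjusted p = 5.3e-06), and the call held with any 1 array left out. The other T-type pores, Cacna1g and Cacna1h, differed by -0.23 and -0.41 on the log2 scale and did not pass (adjusted p = 0.367 and 0.116). Cacna2d1, the alpha2delta subunit that carries calcium channels to the surface and binds gabapentin, was well above the dim range, with 11.57 and 11.69 in 18M + POG cells, against 10.54 and 10.83 in 18M + DMSO cells (log2 fold change 0.95 ± 0.20, adjusted p = 0.00211). Cacng7, a gamma subunit known for its work on glutamate receptors in the brain, gave 8.39 and 8.18 in 18M + POG cells, against 7.72 and 7.48 in 18M + DMSO cells (log2 fold change 0.69 ± 0.20, adjusted p = 0.0156). Cacna1c, the L-type pore of heart and smooth muscle, had both 18M + POG arrays higher, with 8.11 and 7.87, against 7.44 and 7.52 in 18M + DMSO cells, and missed the threshold (log2 fold change 0.51 with a 95% confidence interval of 0.09 to 0.93, adjusted p = 0.0547). Cacna2d1 did not pass without 18M + DMSO array 1 (adjusted p = 0.0671) or 18M + POG array 2 (0.0638), and Cacng7 did not pass without any 1 of the 4 arrays (0.0709 to 0.152).

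None of the 7 TRP channel genes and not Piezo1 passed, and no TRP gene passed under any of the alternatives tried. Of the 7 TRP genes 3 were dim, Trpm3, Trpa1 and Trpc4, with both group means in the chemosensory receptor range. With 4 TRP genes that were not dim, the absence of calls does not show that the class was unchanged. Piezo1, a pore opened by membrane tension, had 10.66 and 10.44 in 18M + POG cells, against 10.41 and 10.70 in 18M + DMSO cells. The groups overlapped, and the 95% confidence interval of the log2 fold change was -0.44 to 0.43. Trpv2 had 10.80 and 10.65 in 18M + POG cells, against 10.59 and 10.87 in 18M + DMSO cells, and its interval was -0.43 to 0.42. Trpm7, a channel fused to a kinase that carries magnesium and calcium, had 11.97 and 12.07 in 18M + POG cells, against 11.50 and 11.80 in 18M + DMSO cells (log2 fold change 0.37 with an interval of -0.06 to 0.80, adjusted p = 0.162). The intervals of Piezo1 and Trpv2 leave room for changes of either sign on the log2 scale.

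Store-operated entry refills the endoplasmic reticulum with calcium. Stim1, the sensor that detects an empty store, rose with POG, and its plasma membrane partner, the pore Orai1, did not pass. Stim1 had 8.39 and 7.99 in 18M + POG cells, against 7.08 and 7.40 in 18M + DMSO cells (log2 fold change 0.95 ± 0.21, a 1.93-fold change, adjusted p = 0.00328). Orai1 had 9.08 and 9.23 in 18M + POG cells, against 9.80 and 9.37 in 18M + DMSO cells, so that its arrays lay apart in the opposite direction, with a log2 fold change of -0.43 and an interval of -0.88 to 0.02 (adjusted p = 0.120). Stim1 did not pass without 18M + DMSO array 1 (adjusted p = 0.0995) or 18M + POG array 1 (0.0883).

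The inositol trisphosphate receptors release calcium from that store, and 2 of the 3 rose, Itpr2 close to the threshold. Itpr1 had 10.13 and 9.78 in 18M + POG cells, against 9.15 and 8.99 in 18M + DMSO cells (log2 fold change 0.89 ± 0.20, adjusted p = 0.00385). Itpr2 had 7.71 and 7.73 in 18M + POG cells, against 6.83 and 7.41 in 18M + DMSO cells (log2 fold change 0.60 ± 0.22, adjusted p = 0.0444). Itpr3 had 8.56 and 8.40 in 18M + POG cells, against 8.10 and 8.39 in 18M + DMSO cells, and did not pass (log2 fold change 0.24, adjusted p = 0.379). Itpr1 lost its call without 18M + DMSO array 1 (adjusted p = 0.0570), 18M + DMSO array 2 (0.0826) or 18M + POG array 1 (0.0739). Itpr2 lost it without 18M + DMSO array 1 (0.376), 18M + POG array 1 (0.212) or 18M + POG array 2 (0.232), and also when all features were fitted (0.0556) or with a variance trend (0.0606).

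Calcium pumps were measured for 5 genes, and 1 passed. Atp2b4, which pumps calcium out across the plasma membrane, was dim, with an 18M + DMSO mean in the chemosensory receptor range: it had 6.50 and 5.99 in 18M + POG cells, against 5.28 and 5.59 in 18M + DMSO cells (log2 fold change 0.81 ± 0.22, adjusted p = 0.0108). That call was lost without 18M + DMSO array 1 (adjusted p = 0.175), 18M + DMSO array 2 (0.0713) or 18M + POG array 1 (0.151). Atp2a2, the pump that refills the endoplasmic reticulum, was far above the dim range, with 14.84 and 14.65 in 18M + POG cells, against 14.93 and 14.99 in 18M + DMSO cells. It did not pass (log2 fold change -0.22 with an interval of -0.63 to 0.20, adjusted p = 0.408), and neither did Atp2b1, the broadly used plasma membrane pump, at -0.10 (adjusted p = 0.729), nor Atp2c1, the pump of the Golgi, at 0.07 (adjusted p = 0.850).

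**Figure D2:**
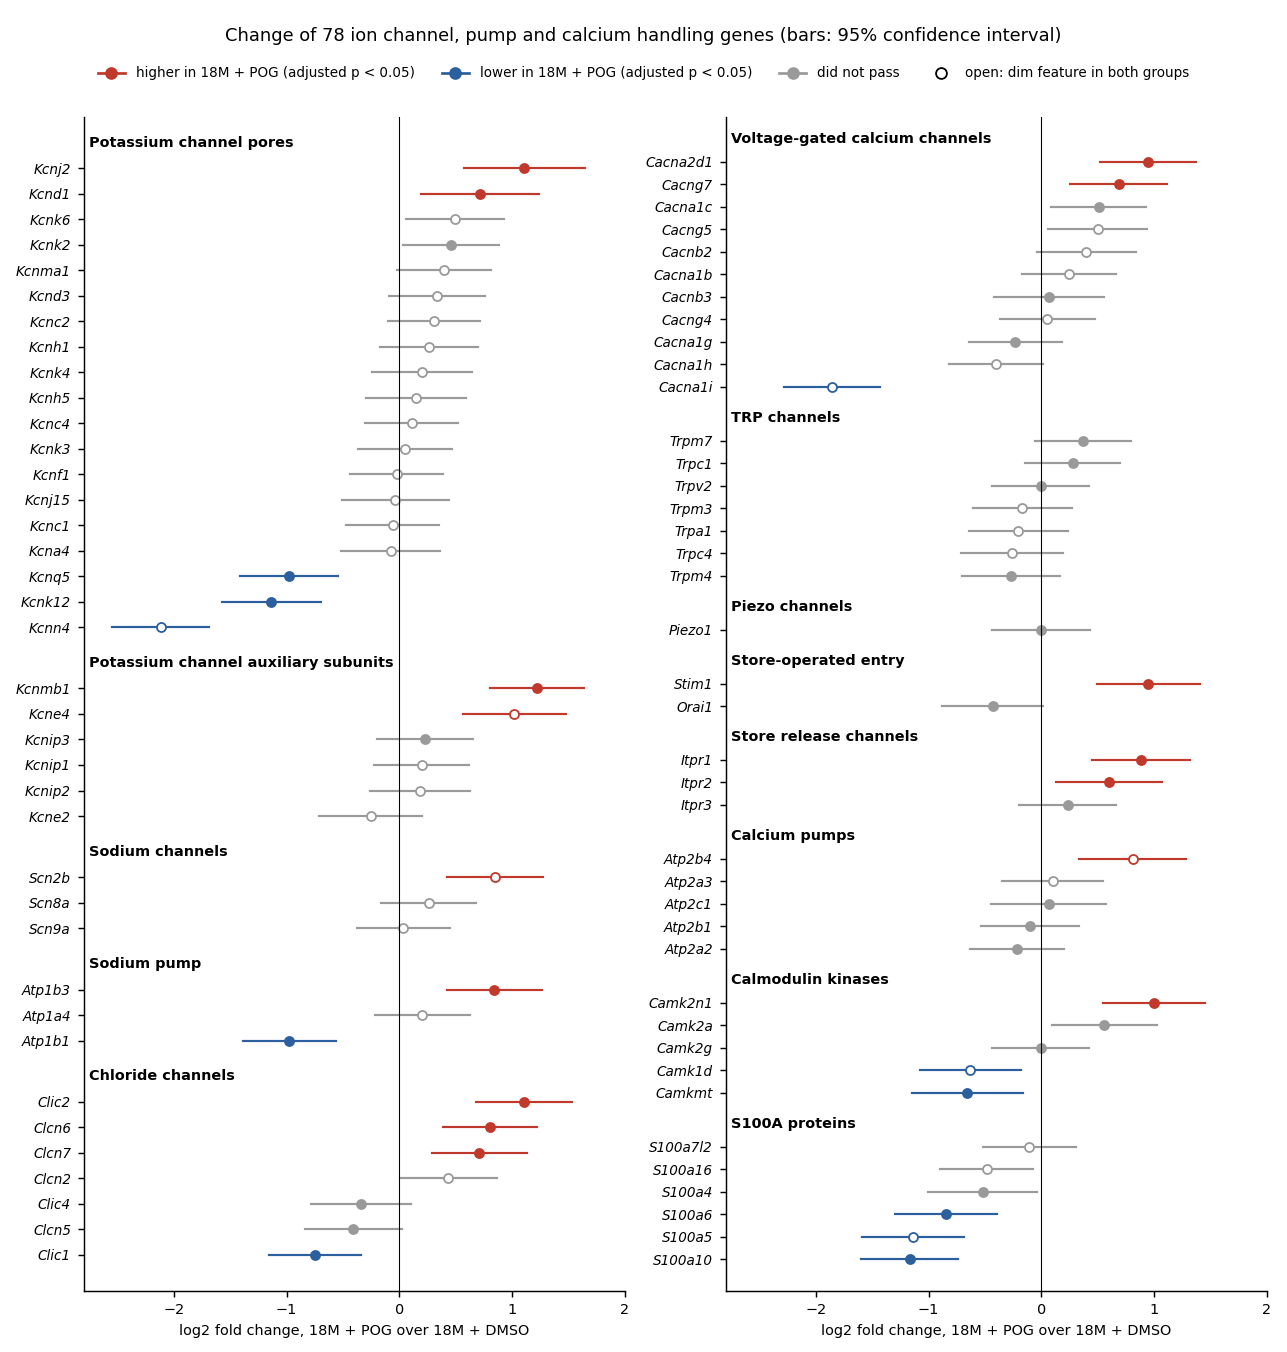
Log2 fold change of 18M + POG over 18M + DMSO (horizontal axes) for each of the 78 genes, grouped by class, with 95% confidence intervals from limma as bars; filled points are genes that were not dim, open points are dim genes, and coloured points passed an adjusted p of 0.05. Kcnn4 (-2.12) and Cacna1i (-1.86) lie furthest left, with 18M + POG signals in the chemosensory receptor range, Kcnmb1 (1.22) lies furthest right, and all 6 S100A genes lie left of 0.

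The sodium pump exchanges sodium for potassium and needs a beta subunit to fold and reach the surface. Its 2 measured beta subunits moved in opposite directions. Atp1b3 rose, with 14.15 and 14.36 in 18M + POG cells, against 13.35 and 13.48 in 18M + DMSO cells (log2 fold change 0.84 ± 0.20, adjusted p = 0.00422). Atp1b1 fell, with 7.98 and 7.85 in 18M + POG cells, against 8.83 and 8.95 in 18M + DMSO cells (log2 fold change -0.98 ± 0.19, adjusted p = 0.00134). Atp1b1 passed with any 1 array left out, and Atp1b3 did not pass without 18M + DMSO array 1 (adjusted p = 0.0791), 18M + DMSO array 2 (0.0509) or 18M + POG array 2 (0.0693). The testis form of the catalytic subunit, Atp1a4, was dim and did not pass (log2 fold change 0.21, adjusted p = 0.437).

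Sodium channel genes were all 3 dim. Scn2b, a beta subunit that also acts in cell adhesion, had 5.78 on both 18M + POG arrays, against 4.78 and 5.08 on the 18M + DMSO arrays, which lie in the chemosensory receptor range (log2 fold change 0.85 ± 0.20, adjusted p = 0.00424). It did not pass without 18M + DMSO array 1 (adjusted p = 0.0880), 18M + POG array 1 (0.0666) or 18M + POG array 2 (0.0689). The pores Scn8a and Scn9a had log2 fold changes of 0.26 and 0.04 and did not pass (adjusted p = 0.320 and 0.904).

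Chloride channel and transporter genes had 3 increases, 1 decrease and 3 genes that did not pass, and their median log2 fold change was 0.44. Clic2, a chloride intracellular channel protein with the fold of a glutathione transferase that also binds ryanodine receptors, had 9.52 and 9.76 in 18M + POG cells, against 8.43 and 8.64 in 18M + DMSO cells. It was clearly apart between the groups (log2 fold change 1.11 ± 0.20, adjusted p = 0.000643) and passed with any 1 array left out. Clcn6 and Clcn7 are chloride/proton exchangers of late endosomes and lysosomes, and Clcn7 is required for acid bone resorption by osteoclasts. Clcn6 had 8.59 and 8.73 in 18M + POG cells, against 7.83 and 7.88 in 18M + DMSO cells (log2 fold change 0.81 ± 0.19, adjusted p = 0.00491). Clcn7 had 9.89 and 10 in 18M + POG cells, against 9.35 and 9.12 in 18M + DMSO cells (log2 fold change 0.71 ± 0.20, adjusted p = 0.0117). Clcn5, the exchanger of early endosomes, pointed the other way, with 8.33 and 8.60 in 18M + POG cells, against 8.78 and 8.97 in 18M + DMSO cells, and did not pass (log2 fold change -0.41, adjusted p = 0.123).

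Clic1 fell, with 13.60 and 13.61 in 18M + POG cells, against 14.35 and 14.36 in 18M + DMSO cells (log2 fold change -0.75 ± 0.19, adjusted p = 0.00716). The replicates of Clic1 differed by 0.01 in each group, and limma's SE rests on 2 residual and 12.2 prior degrees of freedom, the prior shared by all genes. Clic4, also far above the dim range, had 16.06 and 15.80 in 18M + POG cells, against 16.42 and 16.12 in 18M + DMSO cells, and did not pass (log2 fold change -0.34, adjusted p = 0.209). Clcn6 did not pass without 18M + DMSO array 1 (adjusted p = 0.0725), 18M + DMSO array 2 (0.0582) or 18M + POG array 2 (0.0658). Clcn7 and Clic1 did not pass without any 1 of the 4 arrays (0.0622 to 0.126 for Clcn7 and 0.0613 to 0.0737 for Clic1).

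The promoter windows of Clcn7, Clcn6 and Kcne4 are shown because all 3 genes rose and hold CACGTG, the palindromic core that basic helix-loop-helix factors read, including TFEB, a regulator of lysosomal genes. Windows run from 250 bases before the RefSeq gene start to 50 bases from it, 300 bases in all, and were present for 58 of the 78 genes. CACGTG, which reads the same on both strands, was in 5 of the 58 windows (8.62%) and in 6.42% of 33469 rat windows. The 5 genes were Clcn6, Clcn7 and Kcne4, which were higher, and Trpm7 and Itpr3, which did not pass. Over all named genes 20.4% were higher. The share among named genes with CACGTG is not given here, so these 5 genes have no matching base. The motif starts 59 and 18 bases before the gene start in Trpm7 and 237 bases before it in Itpr3. TGACGTCA, the cyclic AMP response element, also the same on both strands, was in none of the 58 windows and in 1.83% of all windows. In the sequences below, from RefSeq on GRCr8 and read 5′ to 3′ on the strand of the gene, capitals mark CACGTG. It starts 34 bases before the gene start in Clcn7, 64 and 41 bases before it in Clcn6 and 90 bases before it in Kcne4. The windows are chr10:14656011-14656310 on the plus strand for Clcn7, chr5:163748149-163748448 on the minus strand for Clcn6 and chr9:87695798-87696097 on the plus strand for Kcne4.
Clcn7: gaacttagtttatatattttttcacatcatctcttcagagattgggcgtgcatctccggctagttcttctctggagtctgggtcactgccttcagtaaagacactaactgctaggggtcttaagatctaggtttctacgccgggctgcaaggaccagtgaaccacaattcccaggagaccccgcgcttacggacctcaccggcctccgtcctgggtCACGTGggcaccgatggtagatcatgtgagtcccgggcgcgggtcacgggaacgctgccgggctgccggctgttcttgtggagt
Clcn6: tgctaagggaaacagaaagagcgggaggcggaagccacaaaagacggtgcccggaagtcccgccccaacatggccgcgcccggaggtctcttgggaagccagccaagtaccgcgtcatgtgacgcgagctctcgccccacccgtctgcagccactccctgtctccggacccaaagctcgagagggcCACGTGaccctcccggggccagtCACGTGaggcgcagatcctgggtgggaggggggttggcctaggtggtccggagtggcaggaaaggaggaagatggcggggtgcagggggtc
Kcne4: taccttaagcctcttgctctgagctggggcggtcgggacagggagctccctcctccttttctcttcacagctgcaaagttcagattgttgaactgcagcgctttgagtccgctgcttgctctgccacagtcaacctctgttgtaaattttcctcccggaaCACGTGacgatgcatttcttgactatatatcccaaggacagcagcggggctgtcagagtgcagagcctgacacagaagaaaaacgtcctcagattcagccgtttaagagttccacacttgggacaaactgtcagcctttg
A match describes these letters in these windows and was not tested as a binding site. The windows printed were chosen by their calls, so they cannot show whether the motif goes with a rise.

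**Figure D3:**
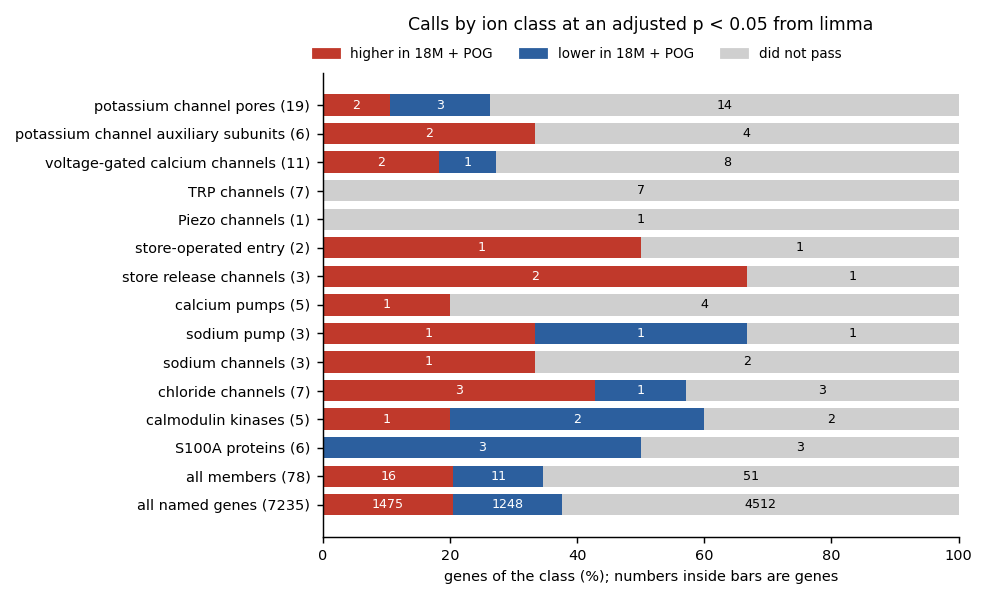
Share of each class in percent (horizontal axis) that was higher, lower or did not pass in 18M + POG against 18M + DMSO cells at an adjusted p of 0.05 from limma; rows are classes with the number of measured genes in brackets, and numbers inside the bars are genes. All 78 genes (34.6% passed) stand beside all 7235 named genes (37.6%). No TRP gene passed, 3 of the 7 being dim, and calls of S100A genes were all lower.

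The 5 genes of the Camk prefix are not all kinases. Camk2n1 encodes an inhibitor of calcium/calmodulin-dependent kinase II, and Camkmt encodes the enzyme that methylates calmodulin on a lysine. Camk2n1 rose, with 10.09 and 9.97 in 18M + POG cells, against 8.79 and 9.27 in 18M + DMSO cells (log2 fold change 1.00 ± 0.21, adjusted p = 0.00216). Of the kinases it acts on, Camk2a had 8.06 and 7.54 in 18M + POG cells, against 7.33 and 7.15 in 18M + DMSO cells (log2 fold change 0.56, adjusted p = 0.0557), and Camk2g had a log2 fold change of -0.01 with overlapping arrays (adjusted p = 0.985). Neither passed. Camk1d, a kinase of the calmodulin kinase I group, was dim and lower, with 5.55 and 5.84 in 18M + POG cells, against 6.16 and 6.49 in 18M + DMSO cells (log2 fold change -0.63 ± 0.21, adjusted p = 0.0282). Camkmt was lower, with 9.23 and 9.84 in 18M + POG cells, against 10.06 and 10.32 in 18M + DMSO cells (log2 fold change -0.66 ± 0.23, adjusted p = 0.0357). Camk2n1 did not pass without 18M + DMSO array 1 (adjusted p = 0.0759), 18M + POG array 1 (0.0787) or 18M + POG array 2 (0.0658). Camk1d and Camkmt did not pass without any 1 of the 4 arrays (0.0824 to 0.236 for Camk1d and 0.0515 to 0.293 for Camkmt).

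The S100A genes were the class with calls in the lower direction alone: 3 of 6 fell, 3 did not pass, and the median log2 fold change was -0.68. In all 6 both 18M + POG arrays lay below both 18M + DMSO arrays, which was so for 32.7% of all named genes, and the 6 fold changes were negative on the deposited values, after quantile normalization and after median subtraction. S100a10, the partner of annexin A2 at the plasma membrane and the family member that has lost calcium binding, had 13.73 and 14.04 in 18M + POG cells, against 15.10 and 15.00 in 18M + DMSO cells. It fell by 1.17 on the log2 scale, a 2.24-fold change (adjusted p = 0.000425), and passed with any 1 array left out. S100a6, also called calcyclin and first found as a gene of growth-stimulated cells, had 13.97 and 13.52 in 18M + POG cells, against 14.62 and 14.56 in 18M + DMSO cells (log2 fold change -0.85 ± 0.21, adjusted p = 0.00598). S100a5 had 4.84 and 4.71 in 18M + POG cells, against 6.14 and 5.69 in 18M + DMSO cells, and was dim in both groups (log2 fold change -1.14 ± 0.21, adjusted p = 0.000747).

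S100a4, known from motile fibroblasts and spreading tumour cells, had 16.35 and 15.72 in 18M + POG cells, against 16.53 and 16.58 in 18M + DMSO cells. The 18M + POG arrays were the wider pair, with an SD of 0.45 against 0.04 in 18M + DMSO cells, and the gene did not pass (log2 fold change -0.52, adjusted p = 0.0822). S100a16 and S100a7l2 were dim and did not pass (log2 fold change -0.49 and -0.11). The 6 genes lie on chromosome 2 in RefSeq, where S100a4, S100a5 and S100a6 are direct neighbours among protein-coding genes and S100a16 is 1 gene away from S100a4. S100a6 did not pass without 18M + DMSO array 1 (adjusted p = 0.101), 18M + DMSO array 2 (0.0803) or 18M + POG array 2 (0.0913), and S100a5 did not pass without 18M + POG array 2 (0.0611).

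**Figure D4:**
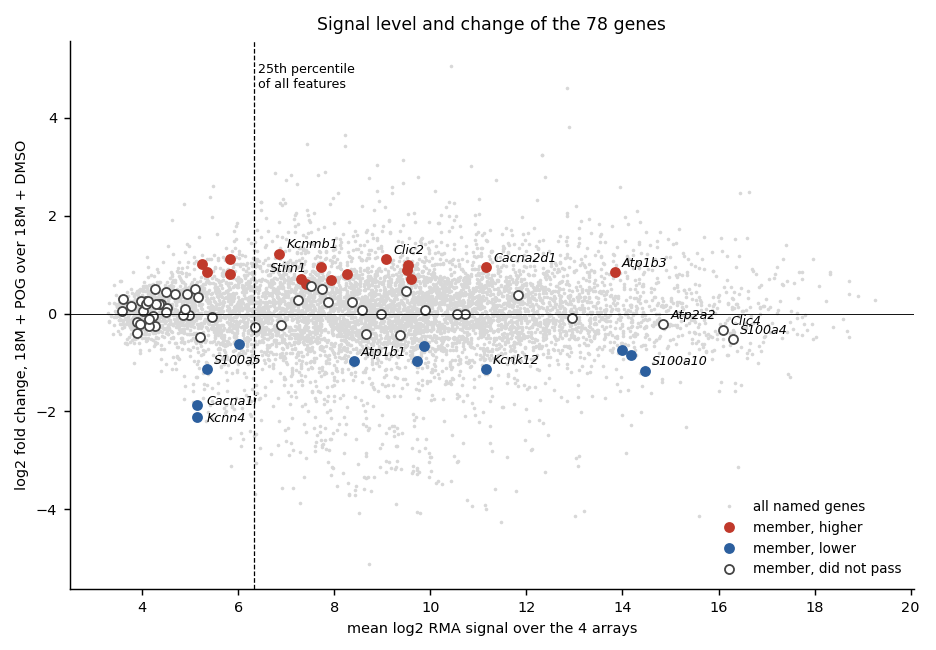
Log2 fold change of 18M + POG over 18M + DMSO (vertical axis) against the mean log2 RMA signal over the 4 arrays (horizontal axis); small grey points are all 7235 named genes, filled coloured points are the 27 of the 78 genes that passed, open points are those that did not, and the dashed line is the 25th percentile of all features (6.34). S100a10 and Atp1b3 passed at high signal, whereas Kcnn4, Cacna1i and S100a5 passed left of the dashed line.

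Genes that work beside these channels and pumps were counted from lists without any of the 78 genes, against the 37.6% of all named genes that passed. Most measured genes of each list were not dim. Of all named genes that were not dim 42.2% passed, which is a closer base for these lists. Of the endoplasmic reticulum calcium buffers and regulators, 15 of 26 listed genes were measured, 3 rose and 2 fell (33.3%), and 2 to 3 and 0 did so with 1 array left out. Pln encodes phospholamban, the brake on the Atp2a2 pump. It had 8.63 and 8.45 in 18M + POG cells, against 5.89 and 5.90 in 18M + DMSO cells (log2 fold change 2.65 ± 0.19, adjusted p = 1.2e-07). Its 18M + DMSO signals lay above the chemosensory receptor means but under the highest single receptor value of 6.20. Casq2, the calsequestrin that buffers calcium inside the store, had 10.36 and 10.39 in 18M + POG cells, against 9.06 and 9.17 in 18M + DMSO cells (log2 fold change 1.26, adjusted p = 0.000152). Hspa5, the major chaperone of the same compartment, was lower by a log2 fold change of -0.59 (adjusted p = 0.0318), a call lost without any 1 array (0.0897 to 0.210). Calr, the calreticulin that also buffers calcium there, had 17.67 on both 18M + POG arrays, against 18.07 and 17.94 on the 18M + DMSO arrays, and did not pass (log2 fold change -0.34, adjusted p = 0.187). The buffers did not move together. Pln and Casq2 passed with any 1 array left out.

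Of the calmodulin, calcineurin and NFAT genes, 21 of 32 were measured, 6 rose and none fell (28.6%), and 1 to 2 rose with 1 array left out. They included Rcan2, an inhibitor of calcineurin, with 14.24 and 14.29 in 18M + POG cells, against 12.66 and 12.96 in 18M + DMSO cells (log2 fold change 1.46, adjusted p = 5.7e-05), and the transcription factors Mef2a (0.86) and Nfat5 (0.74). Rcan2 passed with any 1 array left out, Mef2a passed only without 18M + POG array 1 (0.0532 to 0.0539 otherwise), and Nfat5 never did (0.0510 to 0.128). Of the other cation and anion channels, 19 of 69 were measured, 5 rose and 1 fell (31.6%), and 2 to 3 and 0 did so with 1 array left out. P2rx4, an ATP-gated channel of the surface and lysosomes, had 11.58 and 11.30 in 18M + POG cells, against 9.95 and 10.16 in 18M + DMSO cells (log2 fold change 1.39, adjusted p = 0.000101). Mcoln1, the lysosomal calcium release channel, had 13.70 on both 18M + POG arrays, against 12.72 and 12.76 on the 18M + DMSO arrays (log2 fold change 0.96, adjusted p = 0.00135). The related Mcoln3 was dim, with 6.42 and 6.08 in 18M + POG cells, against 4.91 and 5.30 in 18M + DMSO cells (log2 fold change 1.15, adjusted p = 0.000842). Its 18M + DMSO mean was in the chemosensory receptor range, so the size of that change rests on a floor. P2rx4 and Mcoln1 passed with any 1 array left out, and Mcoln3 did not pass without 18M + DMSO array 1 (0.0582) or 18M + POG array 1 (0.0617). Tpcn1, another calcium channel of endosomes and lysosomes, had 10.42 and 9.75 in 18M + POG cells, against 9.85 and 10.02 in 18M + DMSO cells, and did not pass (log2 fold change 0.15, adjusted p = 0.640).

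Of the sodium-calcium exchangers and mitochondrial calcium transport genes, 8 of 20 were measured, 3 rose and 1 fell (50%), and 1 and 0 did so with 1 array left out. Slc24a3, a potassium-dependent sodium-calcium exchanger, rose by 1.25 on the log2 scale (adjusted p = 0.000351), and Mcu, the pore that lets calcium into mitochondria, fell by 0.65 (adjusted p = 0.0169) while its gatekeeper Micu2 rose by 0.68 (adjusted p = 0.0134). Slc24a3 passed with any 1 array left out, and neither Mcu (0.0816 to 0.132) nor Micu2 (0.0722 to 0.109) passed without any 1 of them. Of the sodium pump regulators and cation-chloride cotransport genes, 15 of 38 were measured, 2 rose and 3 fell (33.3%), and 1 and 2 to 3 did so with 1 array left out. Fxyd5, a small regulator of the sodium pump, had 13.34 and 12.67 in 18M + POG cells, against 14.60 and 13.99 in 18M + DMSO cells (log2 fold change -1.29, adjusted p = 0.0013). It did not pass without 18M + DMSO array 1 (0.0977) or 18M + POG array 2 (0.104). The kinase Wnk3 had 5.76 and 5.41 in 18M + POG cells, against 6.99 and 7.43 in 18M + DMSO cells (log2 fold change -1.62, adjusted p = 4.7e-05). Its 18M + POG mean was in the chemosensory receptor range, so the size of that change rests on a floor. Of the other EF-hand and annexin genes, 23 of 49 were measured, 6 rose and 7 fell (56.5%), and 0 to 2 and 1 to 4 did so with 1 array left out. Anxa2, the binding partner of S100a10, had 16.06 and 16.31 in 18M + POG cells, against 17.02 and 16.95 in 18M + DMSO cells (log2 fold change -0.80, adjusted p = 0.00582); it was picked out after its values were seen, and it passed only without 18M + POG array 2 when 1 array was left out (0.0653 to 0.0850 otherwise). The largest change in that list was Anxa3, another annexin, at -2.48 (adjusted p = 2.1e-06). Ncs1 was also lower (-0.925, adjusted p = 0.00192). S100b (0.905, adjusted p = 0.00414) and the annexin Anxa4 (0.735, adjusted p = 0.00805) were higher with all arrays fitted. Neither call held through every fit without 1 array, although the arrays of the groups lay apart for both genes. In these values neither S100 proteins nor annexins all moved 1 way.

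The arrays as a whole were similar within groups. Their medians were 8.55 to 8.68, and values correlated at r = 0.994 between the 18M + POG arrays, r = 0.995 between the 18M + DMSO arrays and r = 0.962 to 0.965 between groups, across features. Markers of dividing cells were lower in 18M + POG for 20 of 20 measured genes, with a median log2 fold change of -3.32. The log2 of their summed signal was 13.6 to 13.9 in 18M + POG and 17.1 to 17.2 in 18M + DMSO cells. Among them Mki67, the gene of Ki67, had 10.94 in 18M + POG and 15.075 in 18M + DMSO cells (log2 fold change -4.135). The paper reports the other direction for POG-treated aged rTSPCs, with more Ki67 protein and more colonies. The reason for this conflict was not tested. The direction of every fold change here rests on the treatment entries. The part of dividing cells in the changes described here, such as the decreases of Kcnn4, Cacna1i and S100a6, was not tested. Of the tendon and stromal markers 19 were measured, 8 were higher, such as Lum (log2 fold change 2.79) and Pdgfrb (1.29), and 3 lower, among them Tnc (-1.63) and Thbs4 (-0.93). Col1a1 was at 19.4 in 18M + POG and 19.1 in 18M + DMSO cells, but Scx, a defining tendon factor, was dim at 5.67 in 18M + POG and 6.01 in 18M + DMSO cells, and Tnmd and Mkx were not analysed here. Of the chondrocyte and osteoblast markers 4 of 8 measured were higher and none lower (Acan 1.18, Alpl 1.13). Of 6 adipocyte markers 2 were higher (Lpl 1.92, Adipoq 1.11) and 1 was lower (Pparg -0.695). Adipoq was dim, with means of 5.985 in 18M + POG and 4.88 in 18M + DMSO cells. Its 18M + DMSO mean was in the chemosensory receptor range. Of 3 neuronal markers Map2 was higher (0.88). The 2 leukocyte, 2 endothelial and 1 erythroid markers measured were dim. The part of any of these in the results was not tested.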

How the data were processed

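The authors made the deposited log2 values by robust multichip analysis (RMA) with Affymetrix default settings and global scaling, 1 column per array. A second table of the series held identical values for 10141 of 10141 features. Features were named through the platform annotation (7240 with 1 symbol, 2901 unnamed here), and the 4 genes with more than 1 feature took the one with the highest mean. Group means were compared with limma 3.58.1 in R 4.3.3 (lmFit, eBayes, group as sole term), adjusted by Benjamini-Hochberg over 7235 genes at 0.05, and the steps were tested on simulated data. Log2 fold changes are 18M + POG minus 18M + DMSO. The methods' test was Student's, with a fold change over 1.5; an exact permutation of 2 against 2 arrays gives no p under 0.333. The tables hold no detection values and no depth, and 2 arrays per group limit the precision. The genes, classes and lists were chosen with earlier results of these data known. Per class, up to 3 increases and 3 decreases that passed were named, together with a list of core genes and the brightest and dimmest genes of a class. Promoters and gene order are RefSeq (GRCr8).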

Additional observations from a re-analysis of the deposited data

How the results depend on the processing

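The counts of 16 higher and 11 lower genes were 17 and 11 after quantile normalization (36.8% of all named genes passed), 19 and 11 after subtraction of array medians (38.5%), 15 and 11 over all features (35.7%), 16 and 13 with a variance trend (40.4%), and 16 and 11 with the second table, with the mean of features or with a fold change over 1.5. Without the dimmest 25% of genes 38 of the 78 were fitted, with 14 higher and 7 lower (55.3%, against 43.9% of all genes fitted). With the replicate block they were 19 and 11 (40.9%); the replicate numbers were not taken as pairs, since there are 2 of them and the deviations correlated at r = 0.145. Leaving out 1 array gave 2 to 9 higher and 6 to 7 lower genes (15.6% to 17.3% of all named genes passed, and the lone array is then assumed to vary like the others), and 7 of 27 calls held in all of these fits. The lowest count, 2 higher, came without 18M + DMSO array 1. The share of calls that held in all fits without 1 array is not given over all named genes. The count of calls that held therefore has no base to compare with. The methods' test called 8 higher and 8 lower genes (21.7% of all named genes), and all 16 were among the 27 calls. The calls that it did not give were Kcnj2, Kcnd1, Kcne4, Cacng7, Stim1, Itpr2, Atp2b4, Camk2n1, Camk1d, Camkmt and S100a6. After Benjamini-Hochberg adjustment the methods' test called 0 and 0, as for all named genes.

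None of the 27 genes that passed changed sign under any alternative. Those that did had not passed and lay near 0, and the values below cover only some of them. Piezo1 was 0.0006 after quantile normalization and 0.05 after median subtraction, Camk2g 0.025 and 0.05, and Trpv2 0.05 after median subtraction. With 1 array left out, Atp2a3 ran between -0.100 and 0.300, Atp2b1 between -0.295 and 0.095, Atp2c1 between -0.255 and 0.385, Cacnb3 between -0.235 and 0.365, Camk2g between -0.160 and 0.150, Kcnk3 between -0.040 and 0.140, Piezo1 between -0.150 and 0.140, Trpv2 between -0.145 and 0.135. Dim genes, 38 of 78, and the lack of detection values limit what low signals show.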
